A study of Mus musculus with 24 samples.

Results

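Abl.1 and Abl.2 are clonal lymphoblastoid cell lines of the mouse, made by immortalising B-lineage cells with the Abelson oncogene v-Abl, and their total gene expression was compared here. Total expression means the sum of the maternal and the paternal counts of a gene, since the deposited counts are split by allele. Of the 37315 genes in the table, 9692 lay on an autosome and had 10 or more counts in each of the 4 libraries, and these were tested. Both lines come from female F1 animals of the cross 129S1/SvImJ x CAST/EiJ and were kept as untreated controls in growth medium. Each line is 1 clone, and each was represented by 2 libraries (replicates 1 and 2) prepared from 10 ng of total RNA with the SMARTseq kit. The libraries of Abl.2 were sequenced in 2 runs, and the second run served only as a check. Because the replicates are library preparations of a single clone, the p-values measure the spread between preparations and not the spread between independently derived clones.

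Abelson virus transforms early B-lineage cells, which then grow at the pre-B stage. Such cells express the pre-B receptor, in which a surrogate light chain of Vpreb and Igll1 stands in for the light chain, together with the signalling chains Cd79a and Cd79b and the B-lineage transcription factors Pax5 and Ebf1. The v-Abl kinase replaces the growth signal that normal pre-B cells take from interleukin-7 through Jak kinases and Stat5, and its continued activity holds back light chain rearrangement. Because each clone descends from 1 cell, a whole chromosome or segment that lost or gained a copy, or a gene that is expressed from 1 allele, appears the same in every cell. Such states are read from allelic imbalance (AI), which is the maternal share of a gene's counts and is 0.5 where both alleles contribute equally.

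The 4 libraries held between 18909180 and 21912191 autosomal counts. The 2 Abl.2 libraries were close to each other, with 1.03% of genes 2-fold or more apart, while the 2 Abl.1 libraries had 8.89% of genes 2-fold or more apart. Between clones the share was 29.8% to 38.0%. The libraries also differed by transcript length, which the plot of total counts by length shows. In the shortest 20% of the genes (transcripts of 48 to 1607 bases) the median log2 ratio of Abl.1 replicate 1 to replicate 2 was 0.48, and the median log2 fold change of Abl.2 over Abl.1 was -0.66. In the longest 20% the latter was 0.45. Abl.1 replicate 1 stood farther from Abl.2 in short genes than replicate 2 did (-0.85 against -0.32), but both Abl.1 libraries showed the trend. The part of transcript length in the difference between the clones was not tested beyond a fit with length and GC offsets, and values from that fit and from the fit without Abl.1 replicate 1 are given beside some of the results.

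**Figure D1:**
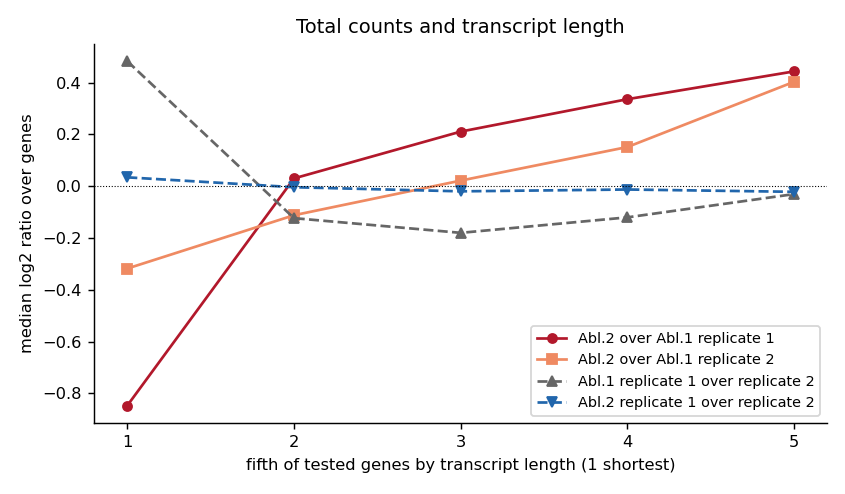
Median log2 ratio of total counts (y axis) in 5 equal groups of the tested genes by transcript length (x axis, 1 shortest), for the mean of Abl.2 over each Abl.1 library and for the 2 replicates of each clone. The Abl.2 over Abl.1 lines climb from -0.85 and -0.32 in the group of shortest transcripts to 0.44 and 0.40 in the longest, and the line between the Abl.1 replicates stands at 0.48 in the shortest.

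Total expression differed between the clones in a large share of the genes. At an adjusted p under 0.05 (edgeR quasi-likelihood test, Benjamini-Hochberg adjustment), 4149 of the 9692 genes were called, which is 42.8%. Of these, 2089 (21.6% of the genes tested) were higher in Abl.2 and 2060 (21.3%) were higher in Abl.1. With a fold change of 2 or more, 2942 genes (30.4%) were called, 1431 of them (14.8%) higher in Abl.2 and 1511 (15.6%) higher in Abl.1. Without Abl.1 replicate 1, 3079 genes passed with 2-fold or more, and 85.1% of the 2942 genes were among them with the same direction. The share was 74.4% without Abl.2 replicate 1 and 69.8% without Abl.2 replicate 2, the lowest of the alternatives run. With length and GC offsets, 2589 genes passed with 2-fold or more, and 74.0% of the 2942 were among them. None of the 2942 genes changed sign in an alternative that tested it, and at least 2738 of them were tested in each. The median log2 fold change of all genes was 0.04, and the scaling to library size alone, without TMM normalization, moved it to 0.35. All log2 fold changes below are Abl.2 over Abl.1, so that positive values are higher in Abl.2. Levels are given as CPM, the counts of a gene scaled to a common total of the tested genes after TMM normalization, and since a gene's count grows with its length and its number of polymorphic sites, levels are compared between libraries but not between genes.

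Among genes with a mean of 100 or more counts, the 10 largest differences in each direction were of 57.5-fold or more. Fcgr3, a low-affinity receptor for IgG, had 2.05 and 0.543 CPM in Abl.1 and 312 and 311 CPM in Abl.2 (log2 fold change 7.97 ± 0.53 SE, adjusted p = 0.000279). Alpl, the tissue-nonspecific alkaline phosphatase, had 1.67 and 2.62 CPM in Abl.1 and 545 and 521 CPM in Abl.2 (7.94 ± 0.30, adjusted p = 0.000116). Slamf6, a lymphocyte surface receptor, had 1.67 and 2.17 CPM against 221 and 255 CPM (6.94). The Abl.2 libraries lay close together in each of these genes, and those of Abl.1 were near the lower end of what was counted. Others of the 10 largest on this side were Cth, Selenow, Crhbp, Il7r, Mzb1 and Lpxn, with log2 fold changes between 5.84 and 7.76. On the other side, Ifitm3, an interferon-induced membrane protein (chr7:141009586-141010770, GRCm38), had 1892 and 1478 CPM in Abl.1 and 4.08 and 6.27 CPM in Abl.2 (-8.34 ± 0.36, adjusted p = 0.000116). Hoxb7, a homeobox transcription factor, had 395 and 296 CPM in Abl.1 and 1.5 and 2.74 CPM in Abl.2 (-7.34). Efna1, an ephrin ligand, had 177 CPM in both Abl.1 libraries and 0.774 and 0.954 CPM in Abl.2 (-7.67). The other 7 of this group were Gng11, Exoc3l, Smpdl3b, Mgst3, Cracr2b, Ighg2b and Arpin, with log2 fold changes from -8.30 to -7.42.

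Some genes were left out of the test because 1 clone had almost no counts of them. Genes with at most 3 counts in each library of a clone and 100 or more in each library of the other numbered 385, of which 266 were found in Abl.1 and 119 in Abl.2. Igfbp4, an insulin-like growth factor binding protein, had 7960 and 12158 counts in Abl.1 and 3 counts in each Abl.2 library. This is at least 4302-fold higher in Abl.1 against a floor of 3 counts per library. Such fold values, here and below, use the mean CPM of the 2 libraries of the higher clone, so a single library can lie lower. In the second run the Abl.2 libraries had 4 and 6 counts of Igfbp4. Ctsg, the neutrophil protease cathepsin G, had 8384 and 6395 counts in Abl.1 and 0 in both Abl.2 libraries (at least 3306-fold). Fn1, the matrix protein fibronectin, had 5386 and 7418 counts against 0 and 1, and Lamb1, a laminin chain, had 6176 and 9461 counts against 0 and 3. Both are components of the extracellular matrix. Rhoj, Gas6 and Gprc5c showed the same pattern, with 4073 to 8059 counts in the Abl.1 libraries and 0 in those of Abl.2. In the opposite direction, Mycn, a Myc family oncogene, had 0 and 1 counts in Abl.1 and 3006 and 2841 in Abl.2 (at least 643-fold). Fcrla, an Fc receptor-like protein of B cells, had 0 counts in both Abl.1 libraries and 2720 and 3362 in Abl.2. Slk, Arhgef18, Csrp3 and Klra1 stood at 0 to 2 counts in Abl.1 and 1856 to 3316 counts in Abl.2, with Klra1 being one of a family of similar genes between which reads can be split. In RNA from many cells, fewer cells of a type and less RNA per cell cannot be told apart, but at 0 counts in libraries of this size the gene was at or under the floor of 3 counts.

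Antigen receptor genes were among the genes counted in 1 clone only. Igkc, the constant region of the kappa light chain, had 0 counts in both Abl.1 libraries and 3594 and 3239 counts in Abl.2 (154 and 134 CPM), which is at least 752-fold higher. Of the 119 genes counted in Abl.2 only, 11 were immunoglobulin light chain segments and 6 were heavy chain segments, and none of the 266 genes on the other side was. Trbc1, the constant region of the T cell receptor beta chain, had 7162 and 7397 counts in Abl.1 and 0 in both Abl.2 libraries. It was accompanied by 2 other T cell receptor genes in Abl.1, while Tcrg-C2, a constant region of the gamma chain, had 0 counts in both Abl.1 libraries and 7093 and 8825 in Abl.2. Ighg2b, the heavy chain constant region of IgG2b, had 2813 and 3099 CPM in Abl.1 and 18.9 and 10.9 CPM in Abl.2 (log2 fold change -7.63 ± 0.38, adjusted p = 0.000145). Segments and constant regions of these loci resemble each other, so their counts are uncertain.

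Genes of pre-B differentiation included more members higher in Abl.2 than in Abl.1. Of 46 listed genes, 40 were tested, and with 2-fold or more 15 were higher in Abl.2 and 6 in Abl.1, against 14.8% and 15.6% of all genes. The median log2 fold change of the 40 genes was 0.56. The components that define the pre-B cell were counted in every library of both clones. Vpreb1, a surrogate light chain, had 3484 and 2678 CPM in Abl.1 and 2085 and 2091 CPM in Abl.2 (-0.56 ± 0.21, adjusted p = 0.0741). Igll1, its partner, had 2071 and 1632 CPM against 1394 and 1371 CPM (-0.42, adjusted p = 0.14). The Abl.1 libraries lay above those of Abl.2 in both genes, and neither difference passed the test with all 4 libraries. With either Abl.1 library left out, the values were -0.37 and -0.75 for Vpreb1 and -0.26 and -0.60 for Igll1. A fit with 1 Abl.1 library takes its spread from the close Abl.2 pair alone, so only its fold changes are given here. Vpreb1 passed with DESeq2 (-0.62, adjusted p = 0.0287). With length and GC offsets the sign of both turned, to 0.36 for Vpreb1 and 0.48 for Igll1, and the latter then passed (adjusted p = 0.0313). Cd79a, a signalling chain of the receptor, had 730.3 and 523 CPM in Abl.1 and 576 and 512 CPM in Abl.2 (-0.20) and did not pass. Its sign turned without Abl.1 replicate 1, without TMM and with length offsets, while without Abl.1 replicate 2 the value was -0.44. Cd79b, the other signalling chain, had 1342 and 1019 CPM against 1351 and 1342 CPM (0.19, adjusted p = 0.493). It passed as higher in Abl.2 without TMM (0.52, adjusted p = 0.0407) and with length and GC offsets (0.73, adjusted p = 0.00845). The values were 0.39 without Abl.1 replicate 1 and -0.01 without Abl.1 replicate 2. The transcription factor Ebf1 had 115 and 138 CPM against 153 and 156 CPM (0.29, adjusted p = 0.235). The value was 0.41 without Abl.1 replicate 2, and the sign turned with length offsets to -0.26. Pax5 was counted at only 17, 33, 45 and 53 counts and did not pass (0.59, adjusted p = 0.301).

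The largest pre-B differences were in the interleukin-7 receptor and in transcriptional regulators. Il7r, the receptor chain for interleukin-7 (chr15:9505788-9530176, GRCm38), had 5.58 and 4.04 CPM in Abl.1 and 418 and 498 CPM in Abl.2 (6.58 ± 0.28, adjusted p = 0.000116). Mzb1, a chaperone of the endoplasmic reticulum in B cells, had 15.4 and 7.7 CPM against 891 and 858 CPM (6.25 ± 0.40, adjusted p = 0.000236). Spib, an Ets family transcription factor, had 2.88 and 3.6 CPM against 132 and 128 CPM (5.31). In each of these genes the clones were separated by far more than the gap between the libraries of a clone. Ikzf1, which encodes Ikaros, a regulator of lymphoid development, had 12.6 and 17.2 CPM in Abl.1 and 138 and 144 CPM in Abl.2 (3.24 ± 0.23, adjusted p = 0.000328). Ikzf3, which encodes the related factor Aiolos, was counted in Abl.2 only, with 0 and 2 counts in Abl.1 and 762 and 918 in Abl.2. The recombinase subunits differed in their outcome. Rag2 had 1.67 and 2.66 CPM in Abl.1 and 14.9 and 16.4 CPM in Abl.2 (2.84 ± 0.34, adjusted p = 0.00198). Rag1 had 31.5 and 24.1 CPM against 42.8 and 37.6 CPM (0.53, adjusted p = 0.0939), and its value was 0.72 without Abl.1 replicate 1. It passed without TMM (0.86, adjusted p = 0.0206) and turned to -0.03 with length offsets. Foxo1, a transcription factor that drives the Rag genes, had 312 and 272 CPM in Abl.1 and 1085 and 1121 CPM in Abl.2 (1.92, chosen after its values were seen, as were the 3 genes that follow). Members of the list that were higher in Abl.1 included regulators of earlier progenitors. Flt3, a cytokine receptor of progenitors, had 8.01 and 7.89 CPM against 1.72 and 0.913 CPM (-2.59, adjusted p = 0.00548). Runx1 had 212 and 198 CPM against 78.5 and 76.6 CPM (-1.40), and Sox4 had 127 and 139 CPM against 57.1 and 57.6 CPM (-1.21).

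**Figure D2:**
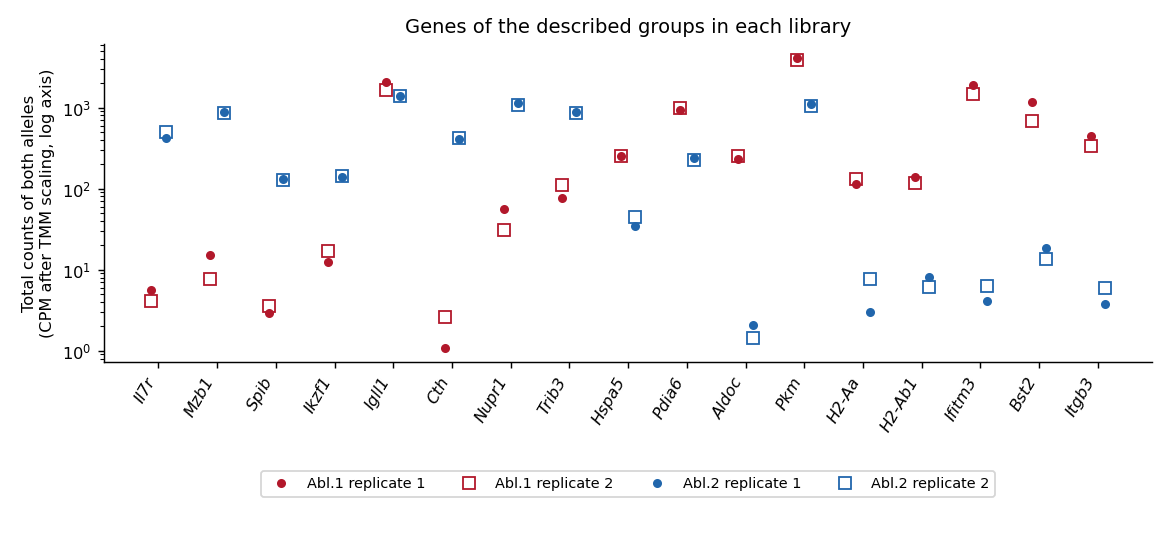
Total counts of 17 described genes in each of the 4 libraries (y axis, CPM after TMM scaling on a log axis), with Abl.1 in red and Abl.2 in blue, filled circles for replicate 1 and open squares for replicate 2. Il7r lies at 4.04 to 5.58 CPM in Abl.1 and 418 to 498 CPM in Abl.2, Ifitm3 at 1478 to 1892 CPM against 4.08 to 6.27 CPM, while Igll1 lies between 1371 and 2071 CPM in all 4 libraries.

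Of the 21 listed genes of mature B and plasma cells, 10 were tested, with 1 higher in Abl.2 and 6 higher in Abl.1 by 2-fold or more, against 14.8% and 15.6% of all genes, and a median log2 fold change of -1.48. The median was -0.83 without Abl.1 replicate 1. With genes admitted that had 10 or more counts in 1 clone only, 3 were higher in Abl.2 and 7 in Abl.1 with a median of -0.64, and with 1 or more counts in any library the median was -0.03. The MHC class II genes led the difference. H2-Aa, the alpha chain, had 115 and 129.9 CPM in Abl.1 and 3.01 and 7.76 CPM in Abl.2 (-4.50 ± 0.45, adjusted p = 0.00106). H2-Ab1, the beta chain, had 138 and 118 CPM against 8.13 and 6.06 CPM (-4.17), and Cd74, the invariant chain that accompanies them, had 126 and 123 CPM against 35.7 and 35.2 CPM (-1.81). All 3 were thus higher in both Abl.1 libraries than in either Abl.2 library. Cd40, a costimulatory receptor, had 28.1 and 32.4 CPM against 6.36 and 7.68 CPM (-2.11).

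Some markers of other blood cells were counted in each clone, and a few of them were abundant. All 6 tested genes of the 16 on the T cell list differed by 2-fold or more, 4 of them higher in Abl.1, against 30.4% of all genes. The 2 higher in Abl.2 became 1 without Abl.2 replicate 1. Cd28, a costimulatory receptor of T cells, had 35 and 37.6 CPM in Abl.1 and 0.86 and 1.58 CPM in Abl.2 (-4.89), and Cd5, which some B cells also carry, had 55.3 and 69.6 CPM against 5.85 and 4.61 CPM (-3.58). Thy1 had 576 and 592 counts in Abl.1 and 0 in both Abl.2 libraries. The kinase Zap70 went the other way, with 3.85 and 6.02 CPM in Abl.1 and 41.6 and 37.2 CPM in Abl.2 (2.99), while the kinase Lck had 12.1 and 15.2 CPM against 4.64 and 3.11 CPM (-1.82) and did not pass without Abl.2 replicate 2. At the same time 7 of the 16 genes had 3 or fewer counts in every library, and the summed list made up 0.00916% to 0.0171% of the counts in all 4 libraries. Of the 19 myeloid genes, 7 were tested, with 3 higher in Abl.2 and 2 in Abl.1 by 2-fold or more. The shares of all genes were 14.8% and 15.6%. The balance of the myeloid list depended on the filter. With 20 or more counts in each library 0 were higher in Abl.2 and 1 in Abl.1. With genes admitted that had 10 or more counts in 1 clone only, 3 were higher in Abl.2 and 6 in Abl.1, and the median turned from 1.23 to -1.56. The list includes Fcgr3 and Ctsg, described above, with 312 and 311 CPM of Fcgr3 in Abl.2 and 537 and 316 CPM of Ctsg in Abl.1. Itgam, an integrin of myeloid cells, had 13.3 and 9.18 CPM in Abl.1 and 0.817 and 0.622 CPM in Abl.2 (-3.95), and Prtn3, the granule protease proteinase 3, had 21.9 and 10.2 CPM against 0.86 and 0.954 CPM (-4.13). Cebpb, a transcription factor, had 1.28 and 0.493 CPM in Abl.1 and 11.7 and 10.3 CPM in Abl.2 (3.66). Csf1r, the receptor that defines macrophages, was not tested and had 412 and 1139 counts in Abl.1 and 0 and 4 in Abl.2. Summed, the myeloid list took 0.0526% to 0.0685% of the counts. The erythroid list had no tested gene, and 3 to 55 counts in all per library. Of the 7 stromal genes, 6 had 3 or fewer counts in every library, and Pdgfrb alone had 1654 and 2410 counts in Abl.1. Of the 7 kidney tubule genes, which were included because the series also holds kidney samples, 4 had 3 or fewer counts in every library, and the list summed to 0 and 0 counts in Abl.1 and 303 and 234 in Abl.2, of which Umod gave 174 and 200. Whether these markers came from a minority of other cells was not tested.

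Nearly all tested genes of the amino acid and unfolded protein response differed, in both directions. Of 40 listed genes 31 were tested, and 30 of them passed, with 16 higher in Abl.2 and 9 higher in Abl.1 by 2-fold or more and a median of 1.01. The share of the list called with 2-fold or more was 80.6%, against 30.4% of all genes. The list joins the integrated stress response, in which the factor Atf4 raises amino acid enzymes and transporters, with the unfolded protein response proper, in which Ern1 and Xbp1 raise chaperones of the endoplasmic reticulum. All 16 members that were higher in Abl.2 by 2-fold or more, except Herpud1 of protein degradation at the endoplasmic reticulum, belong to the former. Cth, which makes cysteine from cystathionine (chr3:157894248-157925077, GRCm38), had 1.09 and 2.62 CPM in Abl.1 and 405 and 422 CPM in Abl.2 (7.76 ± 0.42, adjusted p = 0.000153). Nupr1, a stress-induced chromatin protein, had 55.8 and 31.1 CPM against 1139 and 1076 CPM (4.67 ± 0.34, adjusted p = 0.000376). Ddit4, an inhibitor of mTOR signalling, had 14.1 and 21 CPM against 204 and 162 CPM (3.38), and Trib3, a pseudokinase, had 75.7 and 111 CPM against 876 and 862 CPM (3.22). Smaller differences were seen in Atf4 itself and in its textbook targets, named here after their values were seen. Atf4 had 132 and 142 CPM against 284 and 298 CPM (1.09, adjusted p = 0.00462). Asns, the asparagine synthetase, had 219 and 225 CPM against 527 and 517 CPM (1.23), Psat1, of serine synthesis, had 378 and 424 CPM against 1249 and 1442 CPM (1.75), and Slc7a5, an amino acid transporter, had 308 and 430.2 CPM against 1155 and 1195 CPM (1.67).

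The members higher in Abl.1 were the sensor Ern1, its target Xbp1, 6 chaperones and folding enzymes of the endoplasmic reticulum, and Psph of serine synthesis. Hspa5, the chaperone BiP, had 254 and 255 CPM in Abl.1 and 34.7 and 44.6 CPM in Abl.2 (-2.68 ± 0.20, adjusted p = 0.000429). Pdia6, a protein disulfide isomerase, had 942 and 977 CPM against 239.9 and 228 CPM (-2.04). Sdf2l1, a cofactor of BiP, had 184 and 123 CPM against 19.6 and 21.2 CPM (-2.91). The sensor Ern1 had 43.3 and 54.8 CPM against 4.3 and 6.02 CPM (-3.25), and its target Xbp1, named after its values were seen, had 114 and 158 CPM against 54.7 and 68.5 CPM (-1.14, adjusted p = 0.0112). In all 5 genes both Abl.1 libraries lay above both Abl.2 libraries. With length and GC offsets 16 members were higher in Abl.2 and 7 in Abl.1, without Abl.1 replicate 1 the counts were 17 and 9, and without TMM 5 members remained higher in Abl.1.

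The promoters of these members were searched for the motif known for the integrated stress response, which was chosen after the values were seen. The motif was TGATGNAA, the composite element bound by Atf4 with a C/EBP protein, searched on both strands from 250 bases before to 50 bases after the RefSeq start site. It was present in 6 of the 17 members called higher in Abl.2 that have a promoter in the table (Nupr1, Trib3, Atf3, Herpud1, Chac1 and Asns) and in none of the 9 higher in Abl.1. Among all 32851 promoters 3.97% held it, and of 7309 tested genes with a promoter 2.72% had it in at least 1. The list holds textbook targets of Atf4, so the number of matches is no test of the difference between the clones. A match describes the sequence and does not show that a factor binds there. The stretches below are from RefSeq on GRCm38.p6, written on the strand of the gene, with the match to the motif in capitals. They are shown because they carry this motif. The Nupr1 stretch is chr7:126625533-126625620 (minus strand), the Atf3 stretch is chr1:191183396-191183483 (minus), the Herpud1 stretch is chr8:94386277-94386364 (plus) and the Asns stretch is chr6:7693185-7693272 (minus).
Nupr1: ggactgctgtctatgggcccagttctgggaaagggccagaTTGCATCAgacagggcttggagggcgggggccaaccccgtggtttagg
Atf3: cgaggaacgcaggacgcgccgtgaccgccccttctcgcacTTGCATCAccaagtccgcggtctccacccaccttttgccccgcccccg
Herpud1: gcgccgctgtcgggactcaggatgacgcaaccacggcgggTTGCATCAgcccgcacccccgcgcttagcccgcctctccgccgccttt
Asns: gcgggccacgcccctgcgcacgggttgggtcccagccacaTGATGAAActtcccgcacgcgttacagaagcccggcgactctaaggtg

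Glycolytic genes that passed with all 4 libraries were higher in Abl.1. Of 25 listed, 19 were tested, 10 were higher in Abl.1 by 2-fold or more, against 15.6% of all genes, 0 were higher in Abl.2, and the median was -1.29. In 10 of the 16 alternatives, among them each that left out a library, 1 gene of the list was called higher in Abl.2 by 2-fold or more. Aldoc, the aldolase isoform of brain, had 230.4 and 255 CPM in Abl.1 and 2.06 and 1.45 CPM in Abl.2 (-7.11 ± 0.27, adjusted p = 0.000116). Hk1, a hexokinase, had 93.2 and 138 CPM against 14.5 and 12.3 CPM (-3.11), and Pfkm, a phosphofructokinase, had 22.6 and 29.2 CPM against 4.51 and 2.9 CPM (-2.80). The abundant enzymes of the lower pathway moved less. Pkm, the pyruvate kinase, had 4042 and 3869 CPM against 1115 and 1050 CPM (-1.87), and Ldha, the lactate dehydrogenase named after its values were seen, had 3528 and 3137 CPM against 2014 and 2017 CPM (-0.73, adjusted p = 0.0242). Gapdh stood apart, with 37.2 and 6.26 CPM in Abl.1 and 94.8 and 101 CPM in Abl.2, and did not pass (2.18 ± 0.72, adjusted p = 0.0518, named after its values were seen). Its Abl.1 libraries differed from each other by more than this fold. It was called higher in Abl.2 with length and GC offsets (2.58, adjusted p = 0.0209), a setting in which 10 genes of the list were higher in Abl.1. Its value without Abl.1 replicate 1 was 3.95.

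Of 29 listed genes of cholesterol and fatty acid synthesis, 28 were tested, and 7 were higher in Abl.1 and 1 in Abl.2 by 2-fold or more. This is 28.6% of them, near the 30.4% of all genes. The 7 became 4 without TMM, and the 1 became 3 without Abl.1 replicate 2. The list had a median of -0.28 that turned to 0.02 without TMM. Fdps, which makes farnesyl diphosphate, had 218 and 181 CPM in Abl.1 and 53.6 and 62.2 CPM in Abl.2 (-1.78, adjusted p = 0.00147), and the desaturase Scd1 had 60.1 and 61.4 CPM against 20 and 21.2 CPM (-1.56). The 1 gene higher in Abl.2 was Insig1, which holds back the pathway's regulator, with 38.2 and 59.4 CPM against 114 and 106 CPM (1.17, named after its values were seen), and without Abl.1 replicate 1 it was at 0.88, under 2-fold.

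Interferon response genes held some of the largest differences, while the median of the list was near 0. Of 46 listed, 36 were tested, with 4 higher in Abl.2 (7 without Abl.1 replicate 2 and without TMM) and 11 higher in Abl.1 by 2-fold or more, against 14.8% and 15.6% of all genes, and a median of -0.06, which turned to 0.24 without TMM. Besides Ifitm3, Bst2, which tethers virus particles to the cell, had 1171 and 675 CPM in Abl.1 and 18.6 and 13.5 CPM in Abl.2 (-5.84 ± 0.38, adjusted p = 0.000261). Oas1a, an oligoadenylate synthetase with near copies, had 611 and 629 CPM against 23.7 and 25.9 CPM (-4.64), and Ifi44 had 41.9 and 39.2 CPM against 2.37 and 1.91 CPM (-4.24). Class I antigen presentation had 23 tested genes of 27. By 2-fold or more, 9 were higher in Abl.2 and 6 higher in Abl.1, against 14.8% and 15.6% of all genes. The count of 6 dropped to 3 with length offsets, without Abl.1 replicate 1 and without either Abl.2 library, and to 2 without TMM. H2-Q6, a nonclassical class I gene with near copies, had 14.9 and 21.1 CPM in Abl.1 and 804 and 889 CPM in Abl.2 (5.55). The regulator Irf1 had 33.7 and 43.3 CPM against 149.7 and 165 CPM (2.03), while the chaperones Calr (268 and 271 CPM against 56.8 and 50.8 CPM, -2.32) and Pdia3 (-2.32) were higher in Abl.1. The classical class I chain H2-K1 did not pass, with 2145 and 2254 CPM against 2622 and 2539 CPM (0.23, adjusted p = 0.339, named after its values were seen).

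Few cell cycle genes differed by 2-fold or more. Of 43 tested, 3 were higher in Abl.2 and 3 in Abl.1 by 2-fold or more, which is 14.0% of the list against 30.4% of all genes, with a median of -0.27 that turned to 0.04 without TMM. The 3 higher in Abl.2 became 1 without Abl.1 replicate 1 and 5 without Abl.1 replicate 2 and without TMM. In all, 12 passed the test, among them the D cyclins, which couple growth signals to the cycle. Ccnd1 had 43.6 and 36.8 CPM in Abl.1 and 0.817 and 0.622 CPM in Abl.2 (-5.79 ± 0.30, adjusted p = 0.000148), Ccnd2 had 881 and 653 CPM against 334 and 310.4 CPM (-1.25), and Ccnd3 had 48.1 and 76.3 CPM against 250.3 and 282 CPM (2.10, adjusted p = 0.00227). Ccnd1 and Ccnd2 were thus higher in Abl.1 and Ccnd3 in Abl.2. Ccnd2 did not pass when either Abl.2 library was left out. Birc5, which encodes survivin, had 1960 and 1227 CPM against 486 and 492 CPM (-1.70).

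In the p53 pathway and tumour suppressors, 11 of 33 tested genes were higher in Abl.2 and 3 higher in Abl.1 by 2-fold or more, against 14.8% and 15.6% of all genes, with a median of 0.55. Phlda3, a p53 target that restrains Akt, had 529 and 651 CPM in Abl.1 and 39.5 and 39.6 CPM in Abl.2 (-3.90 ± 0.21, adjusted p = 0.000156). Rb1, the retinoblastoma gene, had 8.33 and 6.02 CPM against 39.2 and 45.7 CPM (2.57). Cdkn2b, a cyclin kinase inhibitor on chromosome 4, had 2.63 and 2.42 CPM against 17.3 and 20.5 CPM (2.91), and its neighbour Cdkn2a, which encodes Arf and p16 and was named after its values were seen, had 24.7 and 21.5 CPM against 92.8 and 80.7 CPM (1.91). In Abl.2 the counts of both were maternal, with AI of 1 and 0.999. Trp53 itself did not pass, with 259 and 263 CPM against 222 and 223 CPM (-0.23, adjusted p = 0.306, named after its values were seen). Without Abl.2 replicate 2 the number of members higher in Abl.2 was 7, and the 3 higher in Abl.1 became 1 without Abl.2 replicate 1 and without TMM.

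The list of v-Abl, JAK-STAT and Ras signalling had 36 tested genes, with a median of 0.42. By 2-fold or more, 11 were higher in Abl.2 and 5 higher in Abl.1, against 14.8% and 15.6% of all genes. The 5 became 2 without Abl.2 replicate 2 and without TMM. Id2, an inhibitor of E proteins, had 3.33 and 3.4 CPM in Abl.1 and 100.4 and 120.1 CPM in Abl.2 (5.03 ± 0.23, adjusted p = 0.000128). Stat5a, the transducer of interleukin-7 signals, had 136 and 306 CPM against 45.5 and 45.3 CPM (-2.28, adjusted p = 0.00587), with more than a 2-fold gap between the Abl.1 libraries. The kinase Jak1 on chromosome 4 had 20.6 and 12.9 CPM against 65.1 and 65.8 CPM (1.97), and the survival factor Bcl2 had 26.8 and 28.9 CPM against 7.44 and 6.93 CPM (-1.95). Egr1 and Il2ra, which the filter left out, had 1 and 12 counts and 20 and 3 counts in Abl.1 and 3511 and 3658 counts and 1153 and 1204 counts in Abl.2. Myc did not pass, with 136 and 236 CPM against 184 and 164 CPM (-0.10, adjusted p = 0.798), and these last 3 genes were named after their values were seen.

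Adhesion and homing receptors divided between the clones. Of 20 tested genes, 7 were higher in each clone by 2-fold or more, with a median of -0.50. Of all genes, 14.8% were higher in Abl.2 and 15.6% in Abl.1 by 2-fold or more. Itgb3, the integrin beta 3 chain, had 449 and 338 CPM in Abl.1 and 3.78 and 5.89 CPM in Abl.2 (-6.34 ± 0.33, adjusted p = 0.000151). The alpha and beta chain of the integrin LFA-1 went in opposite directions, with Itgal at 301 and 416 CPM against 17.3 and 17.2 CPM (-4.38) and Itgb2 at 2.44 and 9.82 CPM against 61.9 and 64 CPM (3.34). With genes admitted that had 10 or more counts in 1 clone only, 31 members were tested. Of these, 10 were higher in Abl.2 and 15 in Abl.1 by 2-fold or more. Of all 11836 genes under that filter, 1995 were higher in Abl.2 and 2407 in Abl.1. Of the immediate early and heat shock genes, 23 were tested, with a median of 0.00. By 2-fold or more, 8 were higher in Abl.2 and 4 in Abl.1, against 14.8% and 15.6% of all genes. The former were immediate early genes such as Zfp36, which destabilises mRNA (2.88 and 3.06 CPM against 46.9 and 43 CPM, 3.92), Junb (29 and 48.4 CPM against 308 and 310.0 CPM, 3.00) and the phosphatase Dusp1 (2.24 and 4.14 CPM against 21 and 20 CPM, 2.67). The 4 higher in Abl.1 were Dusp2 and the heat shock genes Hspe1 (1071 and 566 CPM against 196 and 184 CPM, -2.11), Hsp90aa1 and Hspa8, and they became 2 without either Abl.2 library.

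**Figure D3:**
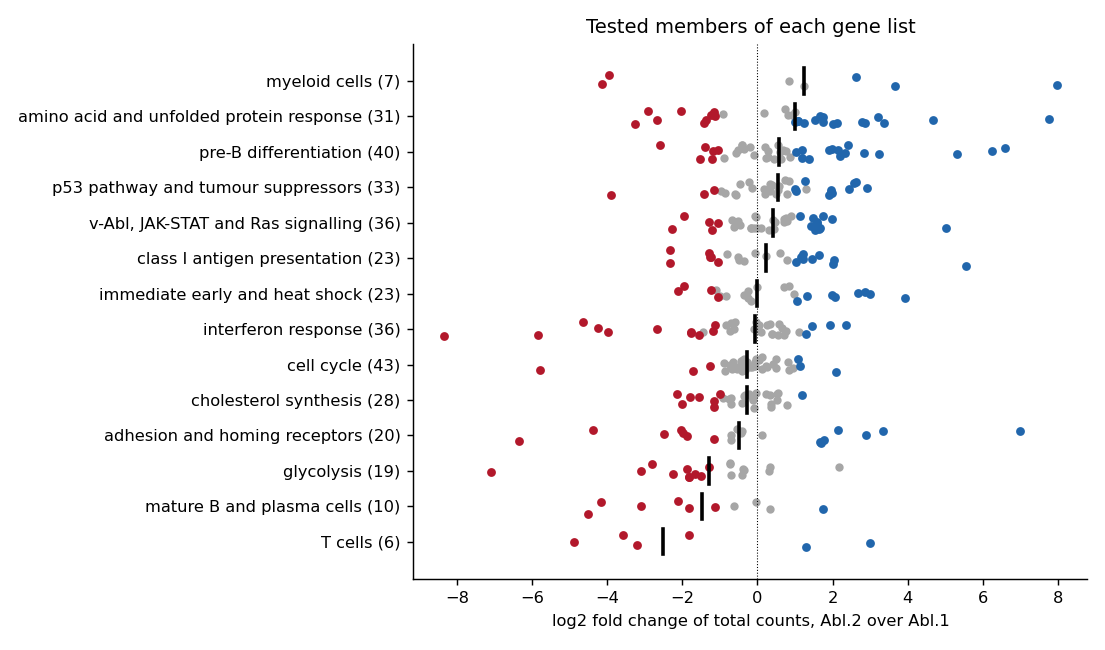
Log2 fold change of total counts (x axis, Abl.2 over Abl.1) of the tested members of each gene list (y axis, number of tested members in parentheses), with members called with 2-fold or more in blue where higher in Abl.2 and in red where higher in Abl.1, the others in grey, and a black bar at the median. The medians run from -2.52 for the T cell list to 1.23 for the myeloid list, and among the larger lists from -1.29 for glycolysis to 1.01 for the amino acid and unfolded protein response.

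Chromosomes 4, 10 and 11 differ in AI between the clones, and the comparison asked how total abundance relates to that. The differential AI test, in which the quality correction constant (QCC) widens the interval of each proportion by the overdispersion seen between replicates, called 1832 of the 9692 genes, which is 18.9%. On chromosome 4 it called 82.4% of 660 genes, on chromosome 10 43.3% of 485, and on the autosomes other than these 3 10.7% of 7657. With 2 libraries against 2, an exact two-sided permutation test over libraries cannot go below p = 0.333. The shares of the autosomal counts of chromosomes 4, 10 and 11 and of the segments of chromosome 11 reached that value. So did the share of the other autosomes, so the value does not set these regions apart. The medians were not tested and are given as descriptions beside the median of the other autosomes, 0.03.

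On chromosome 4 AI differed, while the median of the total counts lay near that of the other autosomes. The median AI of its genes was 0.51 in Abl.1 and 0.999 in Abl.2, so that nearly all counts were maternal in Abl.2. The median log2 fold change of total counts was 0.04. Median maternal counts were higher in Abl.2 by 0.95 on the log2 scale, and the median log2 ratio of the paternal counts was -6.49. The chromosome took 7.41% and 7.29% of the autosomal counts in Abl.1 and 7.58% and 7.63% in Abl.2. Of its genes, 87 were higher in Abl.2 and 107 higher in Abl.1 by 2-fold or more, which is 13.2% and 16.2%, near the 14.8% and 15.6% of all genes. Single genes nonetheless differed widely. Patj, a polarity protein, had 1.09 and 0.543 CPM in Abl.1 and 45.3 and 44.5 CPM in Abl.2 (5.81), and Cntln, a centrosomal protein, had 7.43 and 8.93 CPM against 138 and 150.0 CPM (4.13). Selenon, a selenoprotein, had 53.8 and 90.5 CPM against 0.688 and 0.705 CPM (-6.68), and Tusc1 had 56.7 and 67.4 CPM against 0.817 and 1.2 CPM (-5.93). Alpl and Smpdl3b, described above, completed the largest changes of this chromosome.

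On chromosome 10 both the total and the AI differed. The median log2 fold change of total counts was 0.65. By 2-fold or more, 162 genes (33.4%) were higher in Abl.2 and 45 (9.28%) in Abl.1, against 14.8% and 15.6% of all genes. The median AI was 0.506 in Abl.1 and 0.338 in Abl.2, the median log2 ratio of the maternal counts was 0.06, and the median paternal counts were more than 2-fold higher in Abl.2. The chromosome took 5.02% of the autosomal counts in both Abl.1 libraries and 7.15% and 7.12% in Abl.2. In windows of 10 Mb with 10 or more genes, 12 of 12 medians of chromosome 10 were positive, between 0.38 and 1.28, against 102 of 188 windows of the other autosomes. The median was 0.54 with length and GC offsets. The largest changes were in Icosl, a costimulatory ligand, with 1.54 and 1.23 CPM in Abl.1 and 43.1 and 53.7 CPM in Abl.2 (5.13), in B4galnt1, a ganglioside synthase, with 11.9 and 13.6 CPM against 358 and 351 CPM (4.80), and in Crybg1 (4.41). Against the direction of the chromosome, Prss57, a serine protease, had 79.4 and 46.1 CPM in Abl.1 and 1.42 and 1.53 CPM in Abl.2 (-5.40), followed by Amdhd1 (-4.34) and Tspan15 (-4.13). Of genes described above, Ddit4 and Itgb2, higher in Abl.2, and Hk1 and Prtn3, higher in Abl.1, also lay on chromosome 10.

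Chromosome 11 held segments of different behaviour, whose borders were set from AI, so that AI itself is no result for them. The proximal segment ended between Plek (chr11:16971206-17052381), whose AI was 1 in Abl.1, and Ppp3r1 (chr11:17159263-17200375), whose AI there was 0.558. Its 71 genes had a median AI of 0.998 in Abl.1 and 0.489 in Abl.2 and a median log2 fold change of total counts of 0.84. By 2-fold or more, 28 (39.4%) were higher in Abl.2 and 5 (7.04%) in Abl.1, against 14.8% and 15.6% of all genes. Median paternal counts were higher in Abl.2 by 5.66 on the log2 scale and median maternal counts by 0.16. The 3 largest changes in favour of Abl.2 on the chromosome lay in this segment. They were Polm, a polymerase of V(D)J joining (9.42 and 8.48 CPM against 135 and 140.3 CPM, 3.94), Pik3ip1, an inhibitor of phosphoinositide 3-kinase (19.3 and 22.2 CPM against 240.4 and 235 CPM, 3.52), and Ikzf1. For Ikzf1 (chr11:11685003-11772926) the maternal counts were 12.6 and 17.2 CPM in Abl.1 and 64.9 and 79.4 CPM in Abl.2, and the paternal counts were 0 and 0.0493 CPM against 72.6 and 64.7 CPM. The maternal allele of this gene was thus also higher in both Abl.2 libraries. In the middle segment the median was 0.06 over 471 genes.

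From 90 Mb to the end of chromosome 11, the median total of 348 genes was lower in Abl.2, at -0.57. By 2-fold or more, 112 (32.2%) were higher in Abl.1 and 27 (7.76%) in Abl.2, against 15.6% and 14.8% of all genes. The median AI was 0.669 in Abl.1 and 0.506 in Abl.2, the median maternal log2 ratio was -0.91 and the paternal ratio was 0.03. This segment took 5.77% and 6.17% of the counts in Abl.1 and 3.86% and 3.81% in Abl.2. The largest changes in favour of Abl.1 on chromosome 11 were Hoxb7 and Aldoc, described above, and Scarf1, a scavenger receptor, with 102 and 165 CPM in Abl.1 and 0.86 and 2.16 CPM in Abl.2 (-6.46). Hoxb7 lay in the distal segment, while Aldoc and Scarf1 lay in the middle segment. Stat5a, Birc5, Ern1 and Itgb3, described above as higher in Abl.1, also lay in the distal segment, as did Cd79b, which did not pass. Neither chromosome 10 nor the segments of chromosome 11 held most of the called genes. Of the 1431 genes higher in Abl.2 by 2-fold or more, 11.3% lay on chromosome 10, which held 5.00% of the tested genes. Of the 1511 higher in Abl.1, 7.41% lay in the distal segment, which held 3.59%. Without TMM all of these medians rose by about the shift of all genes, the distal segment to -0.26, and the median of the whole chromosome 11 turned from -0.14 to 0.17. Among the 16 other autosomes the medians ran from -0.08 to 0.26, the last on chromosome 18, whose share of the counts had an exact permutation p of 1. In 4 windows of 10 Mb with 10 or more genes on these chromosomes the median AI of a clone lay 0.1 or more from 0.5. Windows with fewer genes were left out, among them window 6 of chromosome 7, with 9 genes and a median AI of 0.189 in Abl.1. On chromosome 7 the windows 5 and 7 had a median AI of 0.172 and 0.107 in Abl.1 with total medians of 0.06 and -0.11. Window 2 of chromosome 18 had 0.277 with a total median of 0.19, and window 6 of chromosome 19 had 0.396 with a total median of 0.44.

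**Figure D4:**
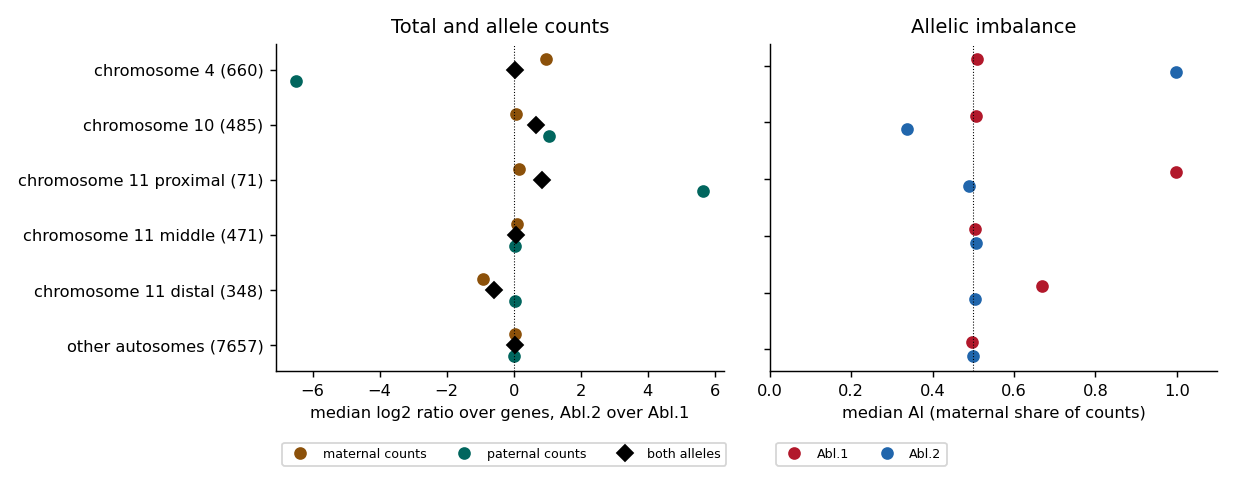
Median log2 ratio of Abl.2 over Abl.1 (left panel, x axis) of maternal counts, paternal counts and both alleles together, and median AI in each clone (right panel, x axis, 0.5 where both alleles contribute equally), for the regions on the y axis with their number of tested genes. On chromosome 4 the total stays at 0.04 while the maternal and paternal medians lie at 0.95 and -6.49, whereas the totals of chromosome 10 and of the proximal and distal segments of chromosome 11 lie at 0.65, 0.84 and -0.57.

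**Figure D5:**
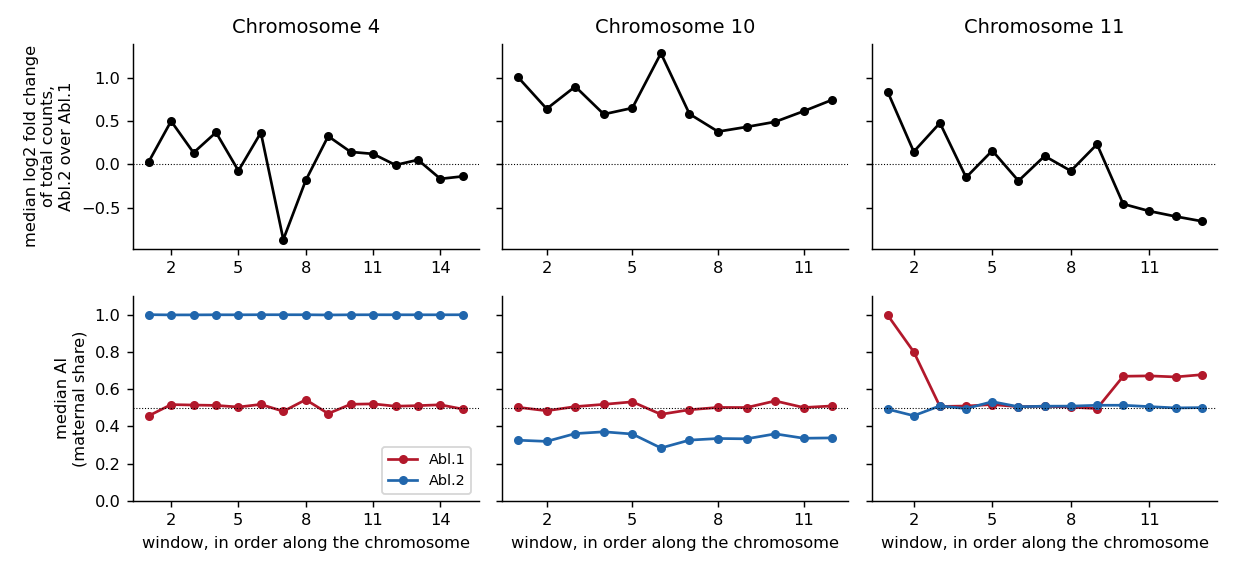
Medians over windows of 10 Mb with 10 or more tested genes, in order along chromosomes 4, 10 and 11 (x axis), of the log2 fold change of total counts (upper row, y axis) and of AI in Abl.1 and Abl.2 (lower row, y axis). The total of chromosome 10 is above 0 in 12 of 12 windows, while on chromosome 4, where AI in Abl.2 is 0.998 or more in all 15 windows, 9 medians are above 0 and the lowest is -0.87.

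Outside the 3 chromosomes, total and AI calls were also set side by side. Of 819 genes there with a called difference in AI, 43.0% were called with 2-fold or more in total counts, against 27.5% of the 6838 genes without one. The former group had a higher median of mean counts (1773 against 672), and with a mean of 100 or more counts in both groups the shares were 43.4% and 28.5%. Both calls come from the same counts, and the share that depth takes in this gap was not tested further. Conversely, AI was called for 15.8% of the genes called with 2-fold or more and for 7.79% of those not called.

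Genes that were monoallelic in 1 clone and biallelic in the other were described by their total counts. Monoallelic here means an AI of at most 0.1 or at least 0.9 and biallelic an AI from 0.3 to 0.7. Outside chromosomes 4, 10 and 11, 130 genes were monoallelic in Abl.2 and biallelic in Abl.1, and their median log2 fold change was -1.27. By 2-fold or more, 75 were higher in Abl.1 and 6 higher in Abl.2, in all 62.3% of them against 30.4% of all tested genes. The allele that Abl.2 kept had a median log2 ratio of -0.29. The reverse kind, monoallelic in Abl.1 and biallelic in Abl.2, numbered 93 genes with a median of 0.06. By 2-fold or more, 16 were higher in Abl.2 and 19 higher in Abl.1, in all 37.6% of the 93 against 30.4% of all tested genes. There the allele kept by Abl.1 had a median ratio of -0.92. The kept allele was maternal in 17 of these 93 genes, and in 64 of the 130 of the first kind. The windows of chromosomes 7, 18 and 19 described above, with a lower median AI in Abl.1, were not left out of the 93. On the proximal segment of chromosome 11 the 41 genes of this kind had a median of 0.92, and on chromosome 4 the 497 genes monoallelic in Abl.2 had a median of 0.09 while their kept allele had 1.06. The difference between these groups was not tested, since the same counts define the groups and the totals.

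Some genes with a large change in total also switched the allele. Plek, a substrate of protein kinase C, had 16.6 and 18.1 CPM in Abl.1, all maternal, and 114 and 128 CPM in Abl.2, with an AI of 0.00105 (log2 fold change 2.80 ± 0.19, adjusted p = 0.000294). Plek lies in the proximal segment of chromosome 11, whose genes had a median AI of 0.998 in Abl.1. Zfp36 had an AI of 0.028 in Abl.1 and 0.997 in Abl.2, where its total was 15.1-fold higher. Ighj3, a heavy chain joining segment, had only paternal counts in Abl.1 (3.85 and 5.72 CPM) and only maternal counts in Abl.2 (51.1 and 55.1 CPM, 3.46). The genes of this group were named because they passed both tests, so a joint change of total and allele follows from the choice. Ssh1 had an AI of 1 in Abl.1 and 0.00443 in Abl.2 (2.11) and Afap1 of 1 and 0.0026 (2.14), the latter losing its call without Abl.2 replicate 2. In the opposite direction of total, Bdh1, of ketone body metabolism, had 47 and 65 CPM in Abl.1 with an AI of 0.113 and 4.13 and 4.48 CPM in Abl.2 with an AI of 0.995 (-3.70), and Aig1 on chromosome 10 had 12.6 and 10.9 CPM against 3.14 and 2.45 CPM, with AI of 0 and 0.992 (-2.08). Tmem132e had an AI of 0.0287 in Abl.1 and 0.91 in Abl.2 and was higher in Abl.2 (2.88).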

How the data were processed

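RNA of 2 clonal cell lines was sequenced as SMARTseq libraries of 10 ng RNA, 2 libraries per clone. The authors aligned reads with STAR 2.5.4a to both parental pseudogenomes on GRCm38, kept unique alignments, assigned reads to an allele at known polymorphic sites, and deposited maternal and paternal counts per gene, in which a read over several sites counts at each. Both alleles were summed here. Genes with 10 or more counts in each library were tested with edgeR 4.0.16 (TMM, quasi-likelihood, Benjamini-Hochberg, threshold 0.05, clone as the only term). AI was compared by a proportional test on pooled counts, widened by QCC (2.64 in Abl.1, 2.19 in Abl.2) with Bonferroni adjustment. Autosomal depth was 18909180 to 21912191 counts per library, and precision is limited by counting error and by only 2 libraries per clone. Scripts were checked on simulated data. Named genes followed a rule: the 10 largest changes per direction, 4 per list and 3 per direction on chromosomes 4, 10 and 11, with a mean of 100 or more counts, the pre-B markers, the 8 most counted near-absent genes per direction and 8 genes with both calls, predicted genes skipped; others are named as chosen afterwards. The comparison, the 17 gene lists and the rule were chosen with earlier results of these data known. Transcript length and GC are from GENCODE (GRCm38) and promoters from RefSeq. Alternatives were other scalings, filters, DESeq2 1.42.0, the second run, a replicate block and leaving out each library. 2 alternatives, library size without TMM and offsets for length and GC in 20 bins each, were added after the data were seen. The deposited AI table and the kidney files were not used here. Some genes that the rule names are not reported here.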

Additional observations from a re-analysis of the deposited data

How the results depend on the processing

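The number of genes called in total expression lay between 2132 and 6687 when 1 library was left out (lowest without Abl.2 replicate 2, highest without Abl.1 replicate 2), and with 2-fold or more between 2132 and 3715. Leaving out a library leaves the spread to the pair of the other clone, so these counts depend on how close that pair was. DESeq2 called 4388 genes. With 1 or more counts in any library as the only filter 4514 genes passed with 2-fold or more. A replicate block gave 4482 calls, 3146 with 2-fold or more. The replicate numbers were not taken as a pairing, since the labels do not state one, only 2 pairs exist and the deviations of same-numbered libraries correlated weakly (Pearson's r 0.15, Spearman's rho 0.15 over 9692 genes, as a description). The median of chromosome 4 stayed near that of all genes throughout. It was 0.0512 in the second run, 0.0669 with both runs summed, -0.0112 with RLE scaling, -0.0128 with DESeq2, 0.0527 with TMM factors from the other autosomes, 0.0494 with 20 or more counts, -0.0259 with 1 or more counts in any library, -0.00289 with 10 or more counts in 1 clone, 0.0495 with the replicate block, 0.0105 to 0.0736 with 1 library left out and 0.35 without TMM. Chromosome 10 was at 0.59 with RLE or DESeq2, 0.76 with the lowest filter, 0.54 with length and GC offsets and 0.96 without TMM. Chromosome 11 as a whole was between -0.15 and -0.0662 with 1 library left out, at -0.0952 in the second run, -0.19 with RLE or DESeq2, -0.20 under both wider filters, and 0.17 without TMM. Its proximal segment was at 1.15 without TMM, and its distal segment at -0.77 and -0.76 under the wider filters and -0.26 without TMM. AI calls numbered 3844 without the QCC correction and 3132 with Benjamini-Hochberg adjustment. Of the 92 named genes that were called, 4 lost the call in some setting, each by leaving out an Abl.2 library. Cd79a lay between -0.44 (without Abl.1 replicate 2) and 0.0424 (without Abl.1 replicate 1) with 1 library left out, at 0.12 without TMM and 0.34 with offsets, and Cd79b between -0.00819 and 0.39 with 1 library left out. With offsets Ebf1 was at -0.26, Vpreb1 at 0.36, Igll1 at 0.48 and Rag1 at -0.0254. The cause of these shifts was not tested. Of the counts of list members over all settings, 53 moved by more than 1.5 times and 491 did not.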
